A study of Mus musculus with 6 samples.

Results

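Macrophage, antigen presentation and other leukocyte genes were followed in the carotid body and the adrenal medulla of adult C57/BL6 mice that had received no treatment. They are the 33 rows of the deposited table that bear the symbol of a listed gene, out of 23511 entries with an mRNA length, and all 33 were found, Emr1 under that older symbol. RNA was sequenced from 3 pools of each tissue. A carotid body pool held 18 organs and an adrenal medulla pool 10, from 10 mice each, so n counts pools and the spread between single animals is not measured. The labels give neither the sex nor the exact age of the mice.

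The carotid body senses oxygen in arterial blood where the carotid artery forks, and the adrenal medulla, inside the adrenal cortex, releases adrenaline and noradrenaline. Both hold resident macrophages among their secretory cells and vessels. Such macrophages depend on the growth factor receptor encoded by Csf1r, clear debris with scavenger receptors, and make the complement component C1q. Antigen-presenting cells load peptides from engulfed proteins onto class II major histocompatibility molecules, which pair an alpha and a beta chain and are guided through the cell by the invariant chain, the product of Cd74.

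The libraries held 13266225 to 16445925 reads. Levels are in RPKM, reads scaled to the length of the mRNA and to the size of the library, so they can be set side by side between genes. At an mRNA length of 2 kb, 1 read corresponds to 0.0304 to 0.0377 RPKM, and all precision from read number covers counting error only. Th and Ddc, which mark catecholamine cells, were present in all 6 libraries, and Pnmt, the adrenaline-making enzyme, stood at 2708 to 6042 RPKM in the adrenal medulla and 1.81 to 16.8 in the carotid body. The adrenal medulla libraries also held adrenal cortex transcripts, with 8769 to 12060 RPKM summed over 7 cortex markers. Over 4 Y-linked genes, adrenal medulla pools 1, 2 and 3 had 3060, 3277 and 7 reads. Carotid body pools 1, 2 and 3 had 1330, 2178 and 1292, all below adrenal medulla pools 1 and 2. The part of sex in the differences between the tissues was not tested. Fat markers were uneven, at 3641 RPKM summed over 7 genes in carotid body pool 2 and 391 and 880.5 in pools 1 and 3, and at 715, 229 and 2223 in adrenal medulla pools 1, 2 and 3.

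Differences are given as the mean log2(RPKM + 1) of the carotid body pools less that of the adrenal medulla pools, so that they are compressed for genes with few reads. A gene is called when limma's adjusted p over all 13357 tested genes is under 0.05. Of the 33 members, 15 were called with the carotid body higher, 0 with the adrenal medulla higher, 17 were not called, and Cd79a was too low to test. The background over all tested genes was 14.2% with the carotid body higher and 7.73% with the adrenal medulla higher, 21.9% in either direction. At an unadjusted p under 0.05 there were likewise 0 members with the adrenal medulla higher in limma, and limma-voom on the read numbers called 0. The tested members had a median log2 difference of 0.84, against 0.02 over all tested genes. All 3 carotid body pools lay above all 3 adrenal medulla pools for 21 members, an order seen in 22.3% of tested genes, and the reverse order was seen in 0 tested members and in 14.7% of tested genes. Itgam, Il7r and Cd3d reached the minimum of 1 RPKM in no adrenal medulla pool, so they were tested only through their carotid body values. Because whole organs were sequenced, fewer cells of a type and less RNA per cell cannot be told apart.

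**Figure D1:**
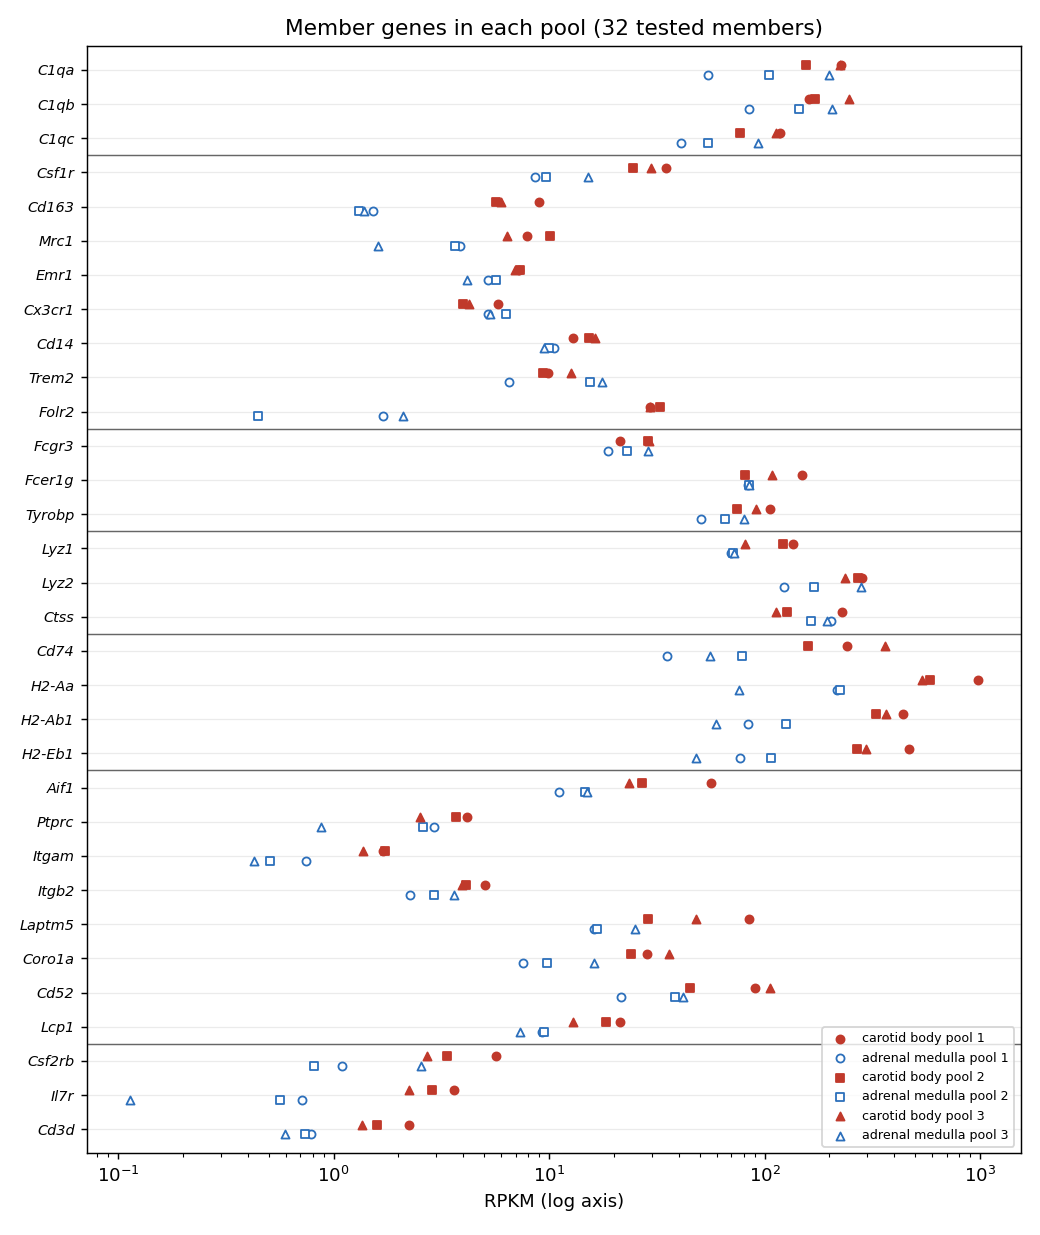
RPKM of the 32 tested members in each pool, on a log axis. Filled red symbols are carotid body pools and open blue symbols adrenal medulla pools, with 1 symbol shape per pool number, and lines separate the groups of genes by role. The 4 class II genes and Folr2 lie well apart between the tissues, whereas Ctss, Trem2, Cx3cr1 and Fcgr3 overlap.

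The 4 class II genes were among the 5 most abundant members in the carotid body and were more than 4-fold higher there. H2-Aa, the alpha chain of the A molecule, stood at 979, 586 and 540 RPKM in carotid body pools 1, 2 and 3 and at 217, 223 and 76.5 in the adrenal medulla pools. Its lowest carotid body pool was above its highest adrenal medulla pool, and pool 3 was the low one of the adrenal medulla. The log2 difference was 2.12 ± 0.45 (SE, limma adjusted p = 0.00923). H2-Ab1, the beta chain that pairs with it, was at 441, 329 and 364 RPKM against 84.0, 126 and 59.5. These groups were also apart, again with adrenal medulla pool 3 lowest (log2 2.12, adjusted p = 0.00131).

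H2-Eb1 encodes the beta chain of the E molecule, whose alpha chain gene is defective in the haplotype of C57 black mice. It was at 469, 269 and 295 RPKM in the carotid body and 76.8, 107 and 47.8 in the adrenal medulla, without overlap (log2 2.17, adjusted p = 0.00220). Cd74 was at 242, 160 and 362 RPKM against 35.3, 78.5 and 56.0 (log2 2.14, adjusted p = 0.00377). Its highest carotid body value was in pool 3, while the 3 chain genes were all highest in pool 1. The means of the 4 genes were 4.50-fold (Cd74), 4.08-fold (H2-Aa), 4.21-fold (H2-Ab1) and 4.47-fold (H2-Eb1) higher in the carotid body. All 4 kept their call in each of 14 alternative analyses, with log2 differences of 1.62 to 2.47.

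Promoters of class II genes are known for a pair of conserved elements, an X box bound by the RFX complex and a Y box bound by NF-Y, on which the coactivator encoded by Ciita assembles. RefSeq promoter entries on GRCm38.p6 were found for 23 of the 33 members, 28 entries in all. The bases before the start site of both class II members with an entry are shown because these genes were higher together, and those of H2-Eb2, a low relative of H2-Eb1, are shown for comparison. Capitals mark GCAACT, letters from the X box region, and CTGATTGG, letters of the Y box. Each covers the 250 bases before the start, 5′ to 3′ along the gene: H2-Aa at chr17:34287824-34288073 on the minus strand, H2-Eb1 at chr17:34305617-34305866 on the plus strand and H2-Eb2 at chr17:34325425-34325674 on the plus strand.
H2-Aa: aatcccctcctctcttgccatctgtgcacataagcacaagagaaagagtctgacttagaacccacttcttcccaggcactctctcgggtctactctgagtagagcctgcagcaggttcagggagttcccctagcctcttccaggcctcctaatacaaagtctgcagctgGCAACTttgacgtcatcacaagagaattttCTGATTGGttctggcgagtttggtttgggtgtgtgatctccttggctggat
H2-Eb1: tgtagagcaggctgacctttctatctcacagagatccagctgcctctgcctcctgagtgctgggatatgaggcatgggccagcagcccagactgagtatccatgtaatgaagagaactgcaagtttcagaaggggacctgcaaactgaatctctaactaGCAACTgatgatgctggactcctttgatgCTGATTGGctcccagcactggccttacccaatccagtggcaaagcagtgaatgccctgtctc
H2-Eb2: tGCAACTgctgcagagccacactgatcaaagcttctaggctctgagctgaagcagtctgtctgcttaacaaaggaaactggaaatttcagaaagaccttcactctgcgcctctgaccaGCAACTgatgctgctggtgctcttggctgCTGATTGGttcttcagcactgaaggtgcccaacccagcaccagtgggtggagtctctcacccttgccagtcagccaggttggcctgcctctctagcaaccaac

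Read along the gene, in H2-Aa the X box letters began 81 bases before the start and the Y box letters 30 bases further on. In H2-Eb1 they began 91 bases before the start, with a spacing of 29 bases. H2-Eb2 held the same pair 132 bases before its start, also 29 bases apart, and a further GCAACT at 249 bases. Its transcript was low in every pool, at 0.999, 0.758 and 0.779 RPKM in carotid body pools 1, 2 and 3 and at 0.330, 0.269 and 0.126 in the adrenal medulla pools, under the filter for testing. The search covered both strands, and the 2 strings do not overlap in any of these sequences. Both strings were found in 2 of the 28 member entries, those of H2-Aa and H2-Eb1, and in 0.341% of 32851 promoters of the same length. Other class II pathway genes called higher in the carotid body, described below, did not hold both exact strings where they had an entry, and Ciita had no entry. Only these exact letters were searched, so X and Y boxes with other letters would be missed. The entries of H2-DMa, H2-DMb1, H2-DMb2, H2-Ob and Ifi30 held neither string, and that of H2-Oa held CTGATTGG only. The letters were chosen after these sequences were seen, so the match is a description.

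Other genes of the class II pathway were also higher in the carotid body, while class I genes were not called. Of 14 class II pathway genes outside the members, 7 were called with the carotid body higher, 0 in the other direction (also 0 at an unadjusted p under 0.05 in limma, and 0 by limma-voom), 5 were not called, and Cd80 and H2-Eb2 were too low to test. The median over the 12 tested was 0.94. H2-DMa and H2-DMb1 encode the chains of the DM molecule, which exchanges the invariant chain remnant for peptide. They were at 39.9 ± 10.9 and 33.5 ± 7.53 RPKM (SD, n = 3) in the carotid body against 8.17 ± 1.87 and 7.22 ± 1.28. H2-Oa, a chain of the molecule that restrains DM, was at 5.56 ± 0.764 against 0.370 ± 0.256 RPKM (log2 2.27, limma adjusted p = 1.09e-04). H2-DMa and H2-DMb1 differed by 2.15 and 2.06 and H2-DMb2, a further DM beta gene, by 1.84. H2-Ob, Ciita and the thiol reductase gene Ifi30 made up the 7. H2-Oa, H2-Ob and Ciita reached 1 RPKM in no adrenal medulla pool, so these 3 were tested only through their carotid body values.

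Ciita itself was low, at 1.87 ± 0.711 RPKM against 0.269 ± 0.0496 (SD, n = 3; log2 1.15, adjusted p = 0.00323). The RFX subunit genes Rfx5, Rfxap and Rfxank gave -0.38, -0.08 and 0.65 and were not called, as were the costimulatory genes Cd40 (0.34) and Cd86 (0.36). Class I molecules are carried by nearly all nucleated cells. Among 13 tested class I pathway genes, limma called 0 in either direction and the median was 0.03. B2m was the 1 with an unadjusted p under 0.05, and limma-voom called 1 with the adrenal medulla higher. B2m, the shared light chain of class I, was at 1443, 1966 and 1447 RPKM in the carotid body and 2850, 3117 and 2902 in the adrenal medulla. Its groups did not overlap, with the adrenal medulla higher (log2 -0.88, adjusted p = 0.0552). Without adrenal medulla pool 3, 3 class I genes were called higher in the carotid body, and without carotid body pool 2, 1 was called higher in the adrenal medulla.

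**Figure D2:**
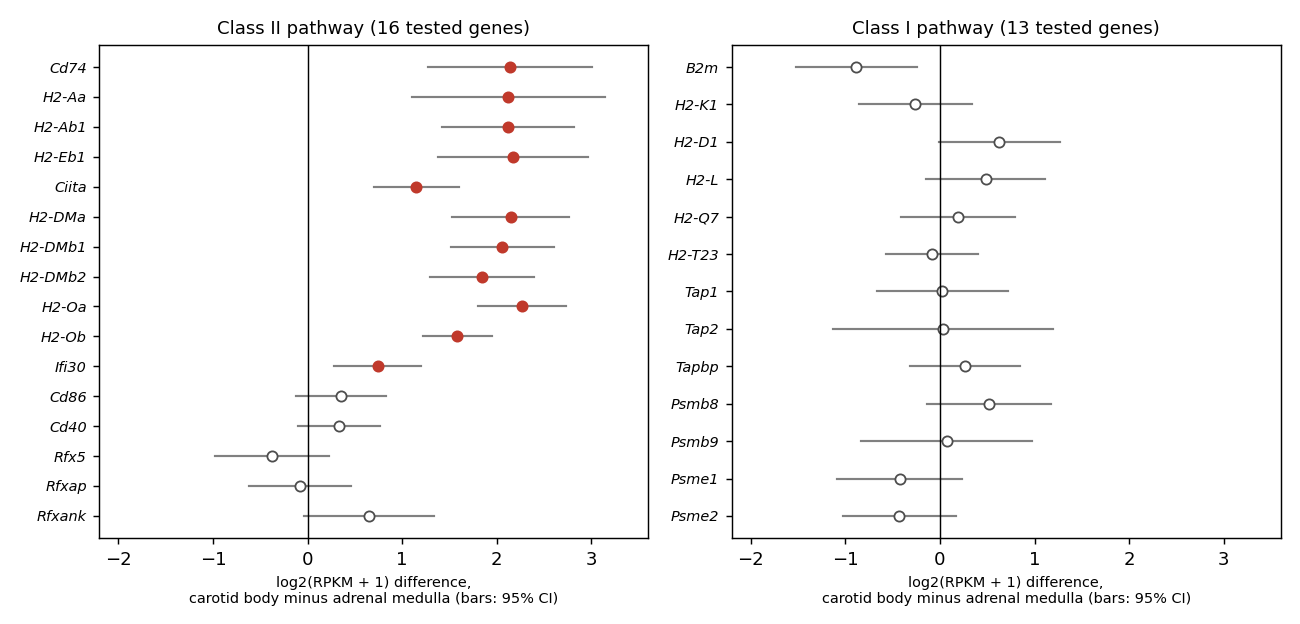
log2(RPKM + 1) differences, carotid body minus adrenal medulla, for 16 tested class II pathway genes (left, the 4 members and 12 others) and 13 class I pathway genes (right). Bars are unadjusted 95% confidence intervals and filled points are called by limma. The lowest filled point on the left is Ifi30 at 0.74, and the right panel has no filled point.

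Markers of other cells that can carry class II were summed in the same libraries. Over 9 dendritic cell markers the summed level was 21.3 to 27.1 RPKM in the carotid body and 3.33 to 8.25 in the adrenal medulla. Cd209a, a lectin of monocyte-derived dendritic cells, was at 9.35 ± 2.27 against 0.552 ± 0.466 RPKM (SD, n = 3; log2 2.76, limma adjusted p = 2.31e-04). Siglech and Clec9a were called in the same direction (1.54 and 0.89), Batf3, Xcr1 and Zbtb46 were not called, and Itgax, Flt3 and Ccr7 were too low to test. The 3 called dendritic cell genes reached 1 RPKM in no adrenal medulla pool and were tested only through the carotid body, and 1 was called at the minimum of 5 RPKM. Over 7 monocyte markers the sum was 94.95 to 111 against 29.4 to 35.1 RPKM. Ly6c2 alone gave the largest part, at a mean of 55.7 against 15.6 RPKM. Of 5 tested, Ly6c2, Ccr2, F13a1 and Fn1 were called with the carotid body higher, and Plac8 was not called (16.6 against 13.5 RPKM). Fn1 reached 1 RPKM in no adrenal medulla pool. Chi3l3 and Vcan were too low to test, and Chi3l3 had the lower mean in the carotid body (0.375 against 0.998 RPKM). Ccr2, a chemokine receptor of monocytes, was at 9.52 ± 4.20 against 0.942 ± 0.593 RPKM (log2 2.41). B cells also carry class II, and 8 B and plasma cell markers summed to 6.12 to 12.2 RPKM in the carotid body and 4.72 to 5.38 in the adrenal medulla. Among them Pax5 was at 0 in the carotid body, Ms4a1 was at a mean of 0.0330 against 0.148 RPKM and Tnfrsf13c, a receptor for a B cell survival factor, at 1.26 against 0.267, with no overlap for Tnfrsf13c. The part of these cells in the class II difference was not tested.

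Receptors of tissue macrophages divided into called and not called. Folr2, a folate receptor of resident macrophages, showed the largest difference of the members. It was at 29.5, 32.8 and 29.5 RPKM in the carotid body against 1.70, 0.447 and 2.11 in the adrenal medulla, or 1450 reads against 70. The carotid body pools were close together and far above all adrenal medulla pools (log2 3.78 ± 0.30, limma adjusted p = 6.35e-05, 21.6-fold in the means). In the GENCODE annotation of GRCm38, 975 of its 1546 exon bases are also covered on the opposite strand by the antisense gene Gm10602, and without strand the reads cannot be divided.

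Cd163, the haemoglobin scavenger receptor, was at 8.98, 5.66 and 5.96 RPKM against 1.52, 1.31 and 1.38. The adrenal medulla pools were nearly equal and all below the carotid body (log2 1.69, adjusted p = 7.62e-04). The summed level of 7 red blood cell markers, mostly haemoglobin transcripts, was 14790, 4803 and 14071 RPKM in the carotid body pools and 2166, 2315 and 5146 in the adrenal medulla pools, and overlapped through carotid body pool 2 and adrenal medulla pool 3. Of 5 tested, 4 were called with the carotid body higher, but only 1 was when pool 1 or 3 of the carotid body, or pool 1 or 2 of the adrenal medulla, was left out. The part of these cells in the Cd163 difference was not tested. Csf1r, the growth factor receptor on which most macrophages depend, was at 34.8, 24.5 and 29.6 RPKM against 8.60, 9.73 and 15.1. Adrenal medulla pool 3 was the highest of its tissue but stayed below the carotid body (log2 1.36, adjusted p = 0.00608). Its exons share 873 of 5774 bases with Hmgxb3 on the opposite strand, which was itself low at a mean of 2.98 and 2.66 RPKM. Mrc1, the mannose receptor, was at 7.94, 10.1 and 6.41 RPKM against 3.85, 3.65 and 1.61, without overlap (log2 1.21, adjusted p = 0.0186). Mrc1 was not called with carotid body pool 1 left out (adjusted p = 0.0618) or with pool 2 left out (0.0654), and its log2 difference was 0.78 when adrenal medulla pool 3 and carotid body pool 2 were left out together.

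Trem2, Cx3cr1, Emr1 and Cd14 were not called. Trem2, a lipid-sensing receptor of phagocytes, was at 9.92, 9.34 and 12.7 RPKM in the carotid body and 6.49, 15.5 and 17.7 in the adrenal medulla. The adrenal medulla pools lay on both sides of the carotid body pools (log2 -0.19, 95% interval -0.997 to 0.609, adjusted p = 0.777). Cx3cr1, the fractalkine receptor, was at 5.78, 3.98 and 4.24 RPKM against 5.22, 6.31 and 5.35 (log2 -0.23, 95% interval -0.73 to 0.26). Its groups overlapped through carotid body pool 1. Emr1, the gene of the F4/80 macrophage antigen, was at 7.24, 7.34 and 6.93 against 5.18, 5.66 and 4.16 RPKM, and Cd14, a coreceptor for bacterial lipopolysaccharide, at 14.8 ± 1.70 against 9.99 ± 0.493 (SD, n = 3). Both were above the adrenal medulla in all 3 carotid body pools, but the adjusted p was 0.166 for Emr1 and 0.108 for Cd14.

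**Figure D3:**
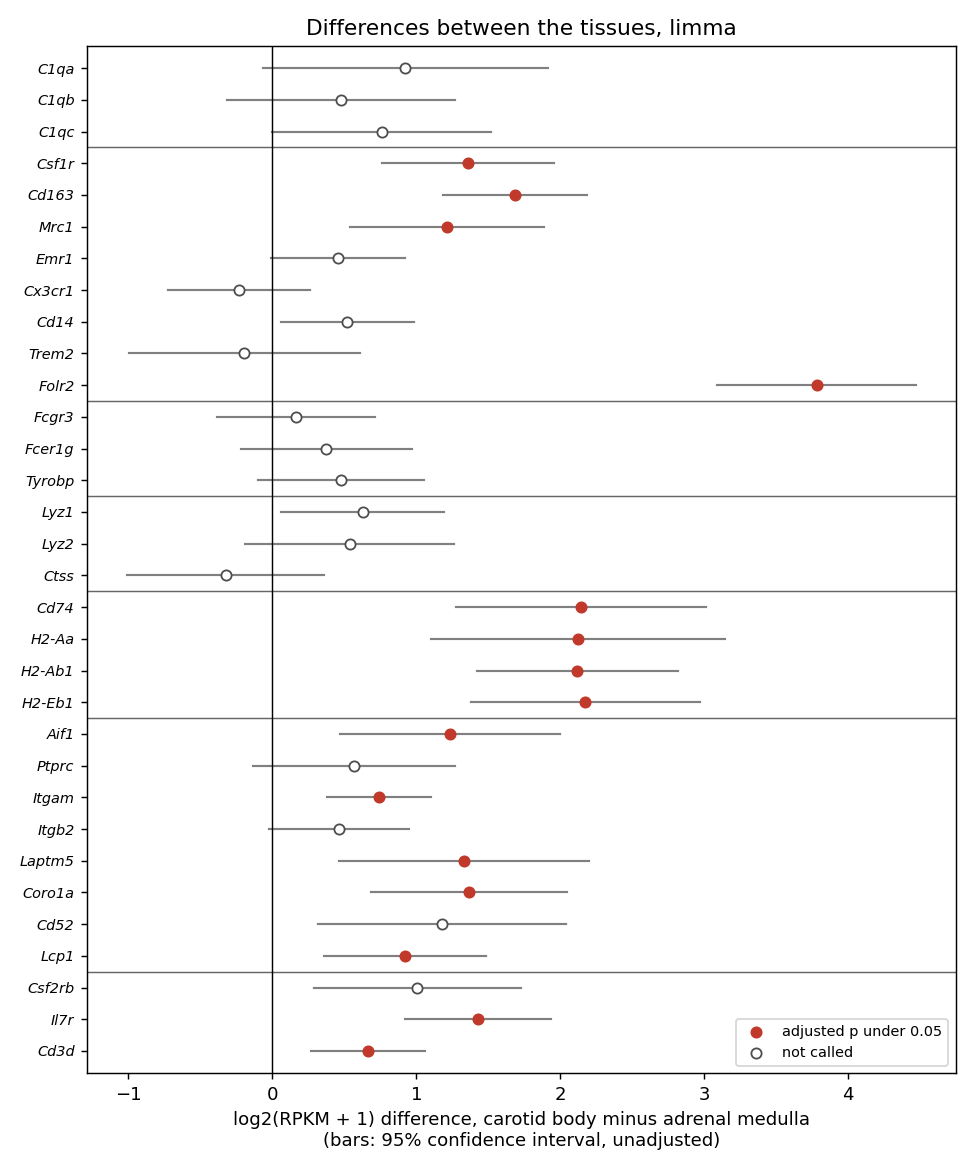
log2(RPKM + 1) difference, carotid body minus adrenal medulla, of the 32 tested members in the order of their roles. Bars are unadjusted 95% confidence intervals and filled points are called at an adjusted p under 0.05. Folr2 at 3.78 and the 4 class II genes at 2.12 to 2.17 lie farthest to the right, and Cx3cr1, Trem2 and Ctss are the 3 members left of 0.

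C1q, the recognition molecule of the classical complement pathway, is built from the products of 3 neighbouring genes. C1qa was at 226, 156 and 225 RPKM in the carotid body and 54.8, 105 and 198 in the adrenal medulla. C1qb was at 161, 172 and 246 against 85.1, 144 and 205, and C1qc at 118, 77.0 and 113 against 40.7, 54.6 and 93.5. In each of the 3 genes adrenal medulla pool 1 was lowest and pool 3 reached into the range of the carotid body. The log2 differences of 0.92, 0.48 and 0.76 were not called (limma adjusted p = 0.183, 0.406 and 0.157). Without adrenal medulla pool 3, C1qa and C1qc were called (1.38, adjusted p = 0.016, and 1.08, adjusted p = 0.02) and C1qb was not (0.77). Leaving out any other single pool gave a call to none of the 3.

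Among other complement genes, some were higher in the carotid body. Of 12 complement genes outside the members, all tested, 5 were called with the carotid body higher, 0 in the other direction (1 at an unadjusted p under 0.05 in limma, 0 by limma-voom) and 7 not, with a median of 0.97. C1s, a protease that travels with C1q, was at 53.7 ± 7.37 against 13.5 ± 4.94 RPKM (SD, n = 3; log2 1.97, adjusted p = 0.00163). Serping1, the inhibitor of the C1 proteases, was at 539 ± 64.3 against 44.7 ± 5.96 RPKM (log2 3.56, adjusted p = 2.22e-05). Cfp, which stabilises the convertase of the alternative pathway, differed by 1.92, the protease gene Cfb by 1.81 and Cd93, a surface protein of endothelial and myeloid cells, by 1.73. C1ra, the other C1 protease gene, was above the adrenal medulla in every carotid body pool but not called (log2 0.74, adjusted p = 0.0673). C4b (-0.78, adjusted p = 0.0818), C2 (-0.26), C3 (-0.23) and C3ar1 (-0.21) had lower carotid body than adrenal medulla levels on this scale and were not called. With the replicate block 7 complement genes were called with the carotid body higher and 1 in the other direction. C1s and Serping1 are also made by fibroblasts, and 6 of 6 fibroblast markers were higher in the carotid body, at 2157 to 2860 RPKM summed against 58.9 to 167. Their part in the complement differences was not tested, nor was the difference between these genes and C1q. C3, the central complement protein, was at 4.93 and 0.994 RPKM in adrenal medulla pools 1 and 2 and at 171 in pool 3.

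Tyrobp and Fcer1g are small membrane adaptors with an ITAM, a signalling motif, through which activating receptors such as Trem2 and the Fc receptors signal. Tyrobp was at 106, 74.9 and 91.4 RPKM in the carotid body and 50.6, 65.7 and 80.2 in the adrenal medulla. The groups overlapped through adrenal medulla pool 3 (log2 0.47, limma adjusted p = 0.242). Fcer1g was at 150, 81.2 and 108 against 83.7, 84.9 and 84.5 RPKM (log2 0.37, adjusted p = 0.383). Its adrenal medulla pools were nearly equal and sat just above the lowest carotid body pool. Fcgr3, a low-affinity receptor for immunoglobulin G, was at 21.4, 28.7 and 29.0 against 18.8, 22.9 and 28.8 RPKM, also with overlap (log2 0.17, adjusted p = 0.714). The interval of its difference ran from -0.38 to 0.72. Of the 32-base windows in its transcript, 17.3% also lie in Fcgr2b, so reads of the 2 genes may be mixed. Fcgr2b, the inhibitory Fc receptor, was at 16.6 against 7.38 RPKM in the means and was called higher in the carotid body (log2 1.05, adjusted p = 0.0124).

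Lysozymes and cathepsin S, which digest bacterial walls and engulfed protein, were abundant in both tissues and not called. Lyz2 was at 283, 270 and 237 RPKM in the carotid body and 124, 169 and 281 in the adrenal medulla. By its mean it was the most abundant member there, but it was the highest in pool 3 only. The groups overlapped through adrenal medulla pool 3 (log2 0.54, limma adjusted p = 0.296), and without that pool Lyz2 was called (0.86, adjusted p = 0.0366). Lyz1 was at 136, 121 and 81.3 against 69.6, 71.6 and 72.2 RPKM, without overlap (log2 0.63, adjusted p = 0.115). Lyz1 and Lyz2 are near copies, with 31.7% of the 32-base windows of Lyz2 also in Lyz1, so the division of reads between them is uncertain. Ctss, which also trims the invariant chain for class II, was at 228, 127 and 113 RPKM against 202, 164 and 195. It was the highest-ranked member in the adrenal medulla after Lyz2 with a mean of 187 against 156 RPKM, within the spread of the pools (log2 -0.33, 95% interval -1.01 to 0.36).

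Of 8 members that mark leukocytes broadly or myeloid cells, 5 were called with the carotid body higher, and Cd52, Itgb2 and Ptprc, the broadest leukocyte gene among them, were not. Coro1a, an actin-binding protein of leukocytes, was at 28.4, 24.0 and 35.9 RPKM against 7.60, 9.75 and 16.1, without overlap (log2 1.37, limma adjusted p = 0.0108). Laptm5, a lysosomal membrane protein of blood cells, was at 84.6, 28.8 and 48.3 RPKM against 16.2, 16.7 and 25.0. It was far higher in carotid body pool 1 than in pool 2, and its lowest carotid body value was only just above the highest adrenal medulla value (log2 1.33, adjusted p = 0.0366). Aif1, the gene of the calcium-binding macrophage protein IBA1, was at 56.6, 27.0 and 23.6 against 11.1, 14.7 and 14.9 RPKM (log2 1.24, adjusted p = 0.0295). Carotid body pool 1 was again the highest. Lcp1, an actin-bundling protein, was at 21.3, 18.4 and 12.9 against 9.25, 9.42 and 7.30 RPKM (log2 0.92, adjusted p = 0.0276).

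Itgam, the integrin chain CD11b, was low, at 1.69, 1.74 and 1.37 RPKM against 0.747, 0.509 and 0.429. The groups were apart (log2 0.74, limma adjusted p = 0.0101), and the difference was 1.38 at a pseudocount of 0.1 and 1.54 with limma-voom. In the GRCm38 annotation 3450 of its 5024 exon bases are shared with the joined gene model Gm49368 on the same strand. Itgb2, its partner chain, was at 4.37 ± 0.580 against 2.93 ± 0.675 RPKM (SD, n = 3; log2 0.46, adjusted p = 0.179). Ptprc, the CD45 phosphatase found on all nucleated blood cells, was at 4.16, 3.71 and 2.53 against 2.91, 2.59 and 0.874 RPKM and overlapped (log2 0.57, 95% interval -0.14 to 1.27). Cd52, a glycoprotein of lymphocytes and some myeloid cells, was at 89.8, 45.0 and 105 against 21.6, 38.5 and 42.0 RPKM, without overlap. It was not called (log2 1.18, adjusted p = 0.0566), but was with the replicate block (0.0422) or when either carotid body pool 2 (0.0158) or adrenal medulla pool 3 (0.0383) was left out.

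The calls of these leukocyte and myeloid genes rested in part on single pools. Without carotid body pool 1 the adjusted p was 0.105 for Laptm5, 0.0602 for Aif1 and 0.103 for Lcp1. Without adrenal medulla pool 1 it was 0.0936, 0.0836 and 0.0528, and without adrenal medulla pool 2 it was 0.113, 0.0701 and 0.0711. Other single pools bore on a call: carotid body pool 3 for Laptm5 (0.0937 without it), carotid body pool 2 for Lcp1 (0.0875) and adrenal medulla pool 2 for Itgam (0.0511). Laptm5 was also not called with no filter on low values (0.0617) or with median-ratio scaling (0.0683), nor was Lcp1 with adrenal medulla pool 3 and carotid body pool 2 left out together (0.0829). Of the windows of Lcp1, 23.5% also lie in other genes, most of them in Gm6201. Coro1a was called in all 14 alternatives.

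Lymphocyte genes were near the bottom of the range. Il7r, an interleukin receptor of lymphocytes and their precursors, was at 3.63, 2.85 and 2.25 RPKM in the carotid body and 0.715, 0.564 and 0.113 in the adrenal medulla, or 405 reads against 63. All carotid body pools were higher (log2 1.43, limma adjusted p = 0.00191), and the difference was 2.60 at a pseudocount of 0.1 and 2.99 with limma-voom. Cd3d, a chain of the T cell receptor complex, was at 2.23, 1.59 and 1.35 against 0.783, 0.737 and 0.594 RPKM, from 99 and 41 reads. The groups were apart and the gene was called (log2 0.66, adjusted p = 0.0255). It was not called without carotid body pool 1 (0.0693) or pool 2 (0.0541), without adrenal medulla pool 1 (0.0578) or pool 2 (0.0819), with adrenal medulla pool 3 and carotid body pool 2 left out together (0.0632), with quantile scaling (0.114) or with limma-voom (0.0552). The difference of Cd3d was 1.16 at a pseudocount of 0.1 and 1.24 with limma-voom.

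Csf2rb, the common beta chain of several cytokine receptors, was at 5.69, 3.36 and 2.70 RPKM against 1.09, 0.807 and 2.53. The groups were just apart, with the lowest carotid body pool next to adrenal medulla pool 3 (log2 1.01, limma adjusted p = 0.0527). Without that adrenal medulla pool it was called (1.29, adjusted p = 0.00919). Csf2rb shares 28.6% of its windows with other genes, nearly all with its neighbour Csf2rb2. Cd79a, a signalling chain of the B cell receptor, had 0 reads over the carotid body pools and 6 over those of the adrenal medulla. A count of 0 allows up to 3 reads, or 0.0522 RPKM over the 3 carotid body pools.

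Markers of single leukocyte types outside the members were mostly scarce. Of 12 T cell markers only Cd3g, Lck and Thy1 were high enough to test, and Thy1, the 1 called (214 ± 2.63 against 35.3 ± 13.1 RPKM, SD, n = 3; log2 2.65, limma adjusted p = 4.18e-04), is also a gene of neurons and fibroblasts. Cd3g gave 0.78 (adjusted p = 0.117). Lck, a kinase of the T cell receptor, ran the other way, at 1.17, 1.01 and 0.769 RPKM against 2.09, 2.23 and 1.23, without overlap (log2 -0.51, adjusted p = 0.108). With quantile scaling, and without adrenal medulla pool 3, 1 T cell marker was called with the adrenal medulla higher. Of 3 B and plasma cell markers tested, 0 were called by limma without the block or by limma-voom, and 1 had an unadjusted p under 0.05. With the replicate block, limma called 1 B cell marker, 1 NK cell marker and 2 T cell markers with the carotid body higher. Gzma, a granule protease of NK and cytotoxic T cells, was called in the other direction, at 2.04, 0.773 and 1.02 RPKM in the carotid body against 18.2, 14.2 and 11.2. Every adrenal medulla pool was above every carotid body pool (log2 -2.78, adjusted p = 1.86e-04). Neither Nkg7 (-0.42) nor Klrd1 (1.04), the other NK cell markers tested, was called.

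Among neutrophil markers, 1 of 5 tested, the protease gene Mmp9, was called higher in the carotid body (1.47). S100a8 (0.16), S100a9 (-0.23), Retnlg (0.18) and Cxcr2 (0.73) were not called, and the pools overlapped for all but Cxcr2. Ltf and Camp were too low to test, with 4 and 1 carotid body reads against 51 and 9. For both, all adrenal medulla pools were higher, and the untested Mpo ran the other way (6 reads against 1). Elane had 0 carotid body reads against 2 and Ngp had 1 against 0, too few to compare. Mast cell genes were called higher in the carotid body for 5 of 5 tested, at 173 to 233 RPKM summed over 7 markers against 2.96 to 10.2. Cma1, a chymase, was at 87.0 ± 23.3 against 1.73 ± 0.824 RPKM (SD, n = 3; log2 5.02, limma adjusted p = 1.71e-05). Mmp9 and the mast cell genes Mcpt4, Tpsb2 and Kit reached 1 RPKM in no adrenal medulla pool, so they too were tested only through the carotid body. Fcer1g also serves mast cells, and their part in its value was not tested. Lymph vessel markers gave 2 calls for the carotid body. Lyve1 was at 16.6 ± 3.23 against 3.31 ± 0.795 RPKM (log2 2.03, limma adjusted p = 4.62e-04). The other was Ccl21a, a chemokine of lymphatic tissue (36.2 ± 14.6 against 0.109 ± 0.133 RPKM, limma adjusted p = 1.71e-05, likewise tested only through the carotid body). Flt4 (0.21) and Pdpn (0.81) were not called. Prox1 was called higher in the adrenal medulla (-1.46). It reached 1 RPKM in no carotid body pool, so it was tested only through its adrenal medulla values.

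Further macrophage genes were also divided into called and not called, and not all calls were for the carotid body. Of 33 such genes, 31 were listed and 27 tested, and 9 were called with the carotid body higher, 1 with the adrenal medulla higher and 17 not, with a median of 0.51. Cd209g, among the 9, reached 1 RPKM in no adrenal medulla pool and was tested only through the carotid body. Clec10a, a galactose-binding lectin, was at 14.3 ± 3.26 against 1.19 ± 0.709 RPKM (SD, n = 3; log2 2.84, limma adjusted p = 2.24e-04). Pf4, a chemokine of platelets and some resident macrophages, was at 116 ± 39.7 against 20.9 ± 2.39 RPKM (log2 2.36, adjusted p = 4.59e-04). Cd209f, a lectin of the DC-SIGN family, gave 2.33 and is 1 of several similar genes, so its reads may be shared. Fcgr4, an activating Fc receptor, was the 1 gene called in the other direction, at 1.98, 2.17 and 2.00 RPKM against 12.3, 12.2 and 13.5. Both sets of pools were tight and far apart (log2 -2.16, adjusted p = 1.05e-04). At an unadjusted p under 0.05 limma gave 2 genes with the adrenal medulla higher. Msr1, a macrophage scavenger receptor, was at 1.08, 0.786 and 0.670 RPKM in the carotid body against 1.49, 1.35 and 1.67, without overlap. It was not called (log2 -0.44, limma adjusted p = 0.0883). The not called genes also included Mpeg1 (-0.12), Ms4a7 (0.04), Cd84 (-0.05) and Cybb (-0.47).

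Of 18 tested genes of CSF1, ITAM and cytokine signalling, 10 were called with the carotid body higher, with 0 called in the other direction (0 at an unadjusted p under 0.05 in limma, 0 by limma-voom) and a median of 0.70. Arhgdib, a regulator of small GTPases in blood cells, was at 51.1 ± 11.1 against 17.9 ± 3.77 RPKM (SD, n = 3; log2 1.46, limma adjusted p = 0.00335). Il2rg, the common gamma chain of interleukin receptors, differed by 1.34, the leukocyte Rac gene Rac2 by 1.30 and Plcg2, a phospholipase downstream of ITAMs, by 0.88. The kinase gene Syk, which binds phosphorylated ITAMs, was at 1.70 ± 0.293 against 0.752 ± 0.0339 RPKM (log2 0.62, adjusted p = 0.0224). Syk and Btk, both among the 10, reached 1 RPKM in no adrenal medulla pool and were tested only through the carotid body. Csf1, a ligand of the Csf1r receptor, was at 11.6, 9.22 and 10.6 against 5.91, 5.83 and 4.18 RPKM (log2 0.87, adjusted p = 0.0222), and Il34, the other ligand, was not called (0.22). Between 5 and 11 of these genes were called when 1 pool was left out, with 5 without carotid body pool 1 or pool 3 and 6 without adrenal medulla pool 1.

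The pools of 1 tissue differed in the balance between class II and the C1q and ITAM groups. Carotid body pool 1 was the highest of its tissue for 21 of the 32 tested members. In the adrenal medulla, pool 3 was the highest for 16 and the lowest for 11. It was highest for all 3 C1q genes, Lyz2, Trem2, Tyrobp, Fcgr3 and Csf1r and lowest for H2-Aa, H2-Ab1, H2-Eb1, Ptprc, Mrc1 and Il7r. The remaining class II gene, Cd74, was lowest in adrenal medulla pool 1, at 35.3 RPKM against 56.0 in pool 3. The mean log2(RPKM + 1) level of the 4 class II genes exceeded that of the C1q genes by 1.53, 1.24 and 1.04 in carotid body pools 1, 2 and 3. It exceeded it by 0.54 and 0.40 in adrenal medulla pools 1 and 2 and was below it in pool 3, with a difference of -1.39. Class II exceeded the ITAM adaptors and Fc receptor by 2.73, 2.41 and 2.51 in carotid body pools 1, 2 and 3. In adrenal medulla pools 1, 2 and 3 the excess was 0.94, 1.28 and 0.02. In both comparisons the 6 values separate the tissues, and pool 3 of the adrenal medulla is the lowest. That pool is also the one with 7 Y-linked reads, and it had the highest fat marker sum of its tissue. The part of sex or of fat in its values was not tested.

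**Figure D4:**
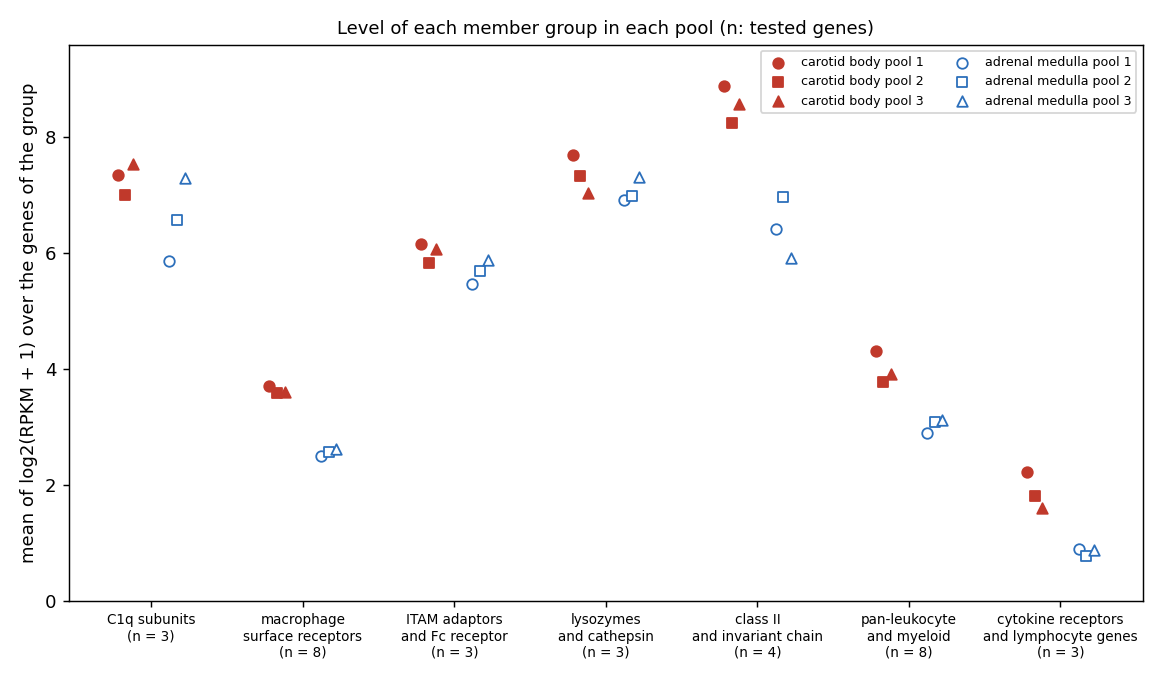
Mean of log2(RPKM + 1) over the tested genes of each member group, with 1 point per pool (filled red, carotid body; open blue, adrenal medulla). The class II group separates the tissues, as do the macrophage surface receptor, pan-leukocyte and cytokine receptor groups. For C1q adrenal medulla pool 3 reaches 7.30, above carotid body pool 2 and below pools 1 and 3.

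The ranking of the members by mean level also differed between the tissues. In the carotid body the order from the top was H2-Aa at a mean of 702 RPKM, H2-Ab1 at 378, H2-Eb1 at 345, Lyz2 at 263 and Cd74 at 255. H2-Ab1 and H2-Eb1 did not differ beyond their spread (SD 57.3 and 109, n = 3), nor did Lyz2 and Cd74 (SD 24.0 and 102). In the adrenal medulla the order was Lyz2 at 191, Ctss at 187, H2-Aa at 172, C1qb at 145 and C1qa at 119 RPKM (SD between pools 81.1, 20.3, 82.9, 60.0 and 72.9). Compared within pools, C1qb was above C1qa in each, at 85.1, 144 and 205 against 54.8, 105 and 198 RPKM. The other neighbours changed order between pools. The lead of Lyz2 came from adrenal medulla pool 3, at 281 RPKM against 76.5 for H2-Aa. In adrenal medulla pools 1 and 2 H2-Aa was the highest member, at 217 and 223 against 124 and 169 for Lyz2. Cd74 ranked 5 of 33 by its carotid body mean and 12 by its adrenal medulla mean, and Folr2 ranked 16 and 28.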

How the data were processed

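RNA of 3 carotid body and 3 adrenal medulla pools was amplified, fragmented and sequenced, per the labels' protocols, and reads were aligned with Bowtie 0.9.8 to mm9, per the submitters' processing notes. The counting rule and strand are not given in the sources used here. The table deposited by the authors holds RPKM for 23511 of 26728 entries. RPKM times the deposited mRNA length was a whole multiple of the value of 1 read, within 0.01, for every value above 0, which gave read numbers. The 3217 entries without a length hold raw counts and were left out. The 2 tissue groups follow the sample titles.

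limma 3.58.1 in R 4.3.3 was run on log2(RPKM + 1) with a variance trend and no block, over 13357 genes with at least 1 RPKM in at least 3 libraries, two-sided with Benjamini-Hochberg adjustment over all of them (8.47 degrees of freedom). All adjusted p-values are limma's, and they measure the spread between these pools; the labels do not say whether pools of the 2 tissues came from the same mice. The fit was tested on simulated data. Alternatives were a pseudocount of 0.1, no filter or a minimum of 5 RPKM, median-ratio or quantile scaling, limma-voom on the recovered reads, leaving out pools, and the pool number as a replicate block. The pool number was used as a block, since same-numbered pools deviated together from their tissue means (correlations over tested genes of 0.259, 0.128 and 0.473 for numbers 1, 2 and 3). Carotid body pool 2 correlated more with adrenal medulla pool 1 (0.291). Carotid body pool 3 held 1292 Y-linked reads and adrenal medulla pool 3 held 7, so these pools cannot all come from the same mice. The number is therefore no record of pairing by mouse. Shared 32-base windows and exon overlaps come from the GENCODE transcripts and annotation of GRCm38, a later build than mm9, and promoters from RefSeq.

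All members were accounted for. Of each other list, up to 4 called genes with the largest absolute difference were named, further genes after their values were seen. Members and lists were chosen with earlier results of these data known. Python 3.11.15 (pandas 2.3.3, numpy 2.4.6) summarised the tables and matplotlib 3.10.9 made the plots.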

Additional observations from a re-analysis of the deposited data

How the results depend on the processing

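Over the alternatives, 10 to 20 members were called higher in the carotid body when 1 pool was left out, 19 when carotid body pool 2 and adrenal medulla pool 3 were both left out (background over all tested genes 14.4%), 16 with the replicate block (16.9%) and 12 to 15 under the other settings, and 0 were called higher in the adrenal medulla in any. With 1 pool left out, 1460 to 1999 of all 13357 tested genes were called higher in the carotid body, the most without adrenal medulla pool 3. The minimum of 5 RPKM called 1103 of 8872 genes, no filter 2195 of 19505 and the remaining settings 1691 to 1864 of 13357. With the replicate block the members' median log2 difference stayed 0.84, and of the member calls only that of Cd52 changed. Of the 15 called members, 9 were called in all alternatives that tested them and 6 lost the call at least once. Of the 17 not called, 11 were called in none. The difference of Trem2 ranged from -0.60 to 0.05 with 1 pool left out, turning positive without adrenal medulla pool 3, and was 0.13 with that pool and carotid body pool 2 left out.

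With those 2 pools left out, calls for the adrenal medulla came to 2 among other macrophage genes, 1 among other class II pathway genes and 1 among class I genes, with 2 class I calls for the carotid body. Quantile scaling gave 2 other macrophage calls for the adrenal medulla and 6 signalling calls for the carotid body. The minimum of 5 RPKM, which tests fewer genes, gave 4 other class II pathway calls and 4 signalling calls for the carotid body. The replicate block gave 1 complement and 1 signalling call for the adrenal medulla, and limma-voom gave 1 class I call there. With 1 pool left out, class I calls ranged from 0 to 3 for the carotid body and 0 to 1 for the adrenal medulla, and signalling calls from 5 to 11. The cause was not tested. Read depth limits Itgam, Il7r, Cd3d and Cd79a, which had 6 to 114 reads over the adrenal medulla pools.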
